A study of Mus musculus with 10 samples.

Results

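The genes of the citric acid cycle and of pyruvate entry into it were followed in left ventricles of mice given osimertinib or placebo after TAC. They are 31 genes named for their place in the pathway, and all 31 were found by symbol among the 45706 genes of the deposited table. By role they comprise 12 enzymes of the cycle, the subunit Dld that the cycle shares with pyruvate dehydrogenase, 3 genes of the malate-aspartate shuttle, 4 genes of the pyruvate dehydrogenase complex, 4 kinases and 3 phosphatase genes that act on that complex, 2 genes of the mitochondrial pyruvate carrier, and the genes of pyruvate carboxylase and a mitochondrial malic enzyme.

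RNA selected for poly(A) tails was sequenced from 10 left ventricles, 5 labelled as TAC with osimertinib and 5 as TAC with placebo (treatment given as vehicle). Osimertinib is a tyrosine kinase inhibitor of the EGF receptor used against lung cancer, and TAC is the usual abbreviation of transverse aortic constriction, a surgical narrowing of the aorta that raises the pressure load on the left ventricle. Both groups carried TAC, and the samples hold no ventricle without it. The labels describe the material as all heart cells, so each value is a mixture over cell types. The sources used here do not give strain, age, sex, dose, length of treatment or whether each library came from a separate animal, and p-values therefore measure only the spread between these samples.

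The citric acid cycle burns acetyl-CoA to carbon dioxide inside mitochondria and hands the electrons to the respiratory chain. Pyruvate made by glycolysis crosses the inner mitochondrial membrane through a carrier and becomes acetyl-CoA in the pyruvate dehydrogenase complex. Kinases switch that complex off by phosphorylation and phosphatases switch it on, which sets how much glucose carbon is burned. The working heart draws most of its energy from mitochondrial oxidation, mainly of fatty acids, and the malate-aspartate shuttle carries reducing power from cytosolic NADH into its mitochondria.

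Promoter sequences of the genes are shown because most of the genes moved together and because estrogen-related receptors, which bind the letters TCAAGGTCA, are known regulators of mitochondrial genes in heart. Windows of 300 bases, from 250 before to 50 after a start of transcription, were taken from RefSeq (GRCm38.p6) and matched 29 of the 31 genes with 38 windows. Idh3a and Pdp1 had no entry. The letters TCAAGGTCA, searched on both strands, were in 0 of the 38 windows and in 0.423% of the 32851 windows of all genes. The shorter AAGGTCA, which is contained in the longer motif, was in 2 of the 38 windows (5.26%), against 4.72% of all windows. They were the window of Got1 and, of the several windows of Ogdh, only that at chr11:6291920-6292219. Those 2 windows are printed below 5′ to 3′ with the motif in capitals, which appears in Ogdh as its reverse complement. Idh2 had the greatest estimated change of the 31 genes, nearly level with Mdh1. Pdk4 is a kinase gene whose call differed between the scalings. The windows of Idh2 and Pdk4 follow and hold neither motif.
Got1 (chr19:43524556-43524855, minus strand): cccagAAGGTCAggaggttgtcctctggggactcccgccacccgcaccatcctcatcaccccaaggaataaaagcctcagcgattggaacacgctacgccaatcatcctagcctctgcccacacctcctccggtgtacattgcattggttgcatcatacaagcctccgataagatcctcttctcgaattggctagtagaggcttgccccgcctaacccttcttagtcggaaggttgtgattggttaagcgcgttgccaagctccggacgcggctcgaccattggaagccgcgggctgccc
Ogdh (chr11:6291920-6292219, plus strand): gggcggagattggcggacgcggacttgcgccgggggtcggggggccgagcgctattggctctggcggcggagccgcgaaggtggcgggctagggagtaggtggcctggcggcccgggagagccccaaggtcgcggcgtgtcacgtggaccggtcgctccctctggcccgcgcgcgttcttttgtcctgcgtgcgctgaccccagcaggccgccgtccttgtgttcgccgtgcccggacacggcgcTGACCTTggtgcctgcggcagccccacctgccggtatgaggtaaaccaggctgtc
Idh2 (chr7:80115301-80115600, minus strand): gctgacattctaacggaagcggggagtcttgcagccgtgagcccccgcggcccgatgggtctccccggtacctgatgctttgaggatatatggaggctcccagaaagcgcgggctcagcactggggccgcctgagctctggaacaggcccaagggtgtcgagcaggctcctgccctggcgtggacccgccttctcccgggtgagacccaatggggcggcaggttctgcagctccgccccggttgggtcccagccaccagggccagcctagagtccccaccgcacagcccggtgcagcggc
Pdk4 (chr6:5496229-5496528, minus strand): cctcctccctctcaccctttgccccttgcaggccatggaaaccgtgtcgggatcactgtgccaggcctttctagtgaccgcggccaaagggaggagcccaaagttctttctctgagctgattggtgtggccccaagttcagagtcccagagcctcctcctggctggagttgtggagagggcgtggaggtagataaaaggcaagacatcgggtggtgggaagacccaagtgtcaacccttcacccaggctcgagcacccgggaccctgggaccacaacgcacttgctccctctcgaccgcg
The 38 windows held a median of 20.5 CG dinucleotides and 61.2% G and C, against 7 and 52.7% over the windows of all genes. The windows of all genes were taken whether or not the gene was expressed here, and several of the windows of Ogdh overlap each other. Whether the contrast is particular to this pathway was not tested. Within these 4 windows the count of CG dinucleotides was 18 in Got1, 37 in Ogdh, 20 in Idh2 and 12 in Pdk4. A match of letters is a description of the sequence and not of binding.

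Libraries differed in composition. Depth was 15863267 to 21309295 reads. Transcripts encoded by the mitochondrial genome took 31.75% to 45.17% of each osimertinib library and 38.13% to 63.35% of each placebo library, with placebo library 5 at the top. The deposited unit, CPM, is scaled to each library's total only. All values are therefore also given after rescaling, in which the median gene of each library was brought to the level of the geometric mean of all 10, by dividing placebo library 5 by 0.4545 and the other 9 by 0.926 to 1.344. Over all 12350 genes tested, the log2 fold change had a median of 0.27 with deposited and 0.01 with rescaled CPM. A log2 fold change is osimertinib over placebo on the log2(CPM + 0.5) scale, tested two-sided with limma and adjusted by Benjamini-Hochberg over all genes tested, and a gene is called at an adjusted p under 0.05.

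Most genes of the pathway were higher after osimertinib and none was called lower. Of 31 genes tested, 25 rose in the deposited CPM and 25 in the rescaled CPM, of which 23 rose under both scalings. Pdp2 is among them and met the filter on low values only through its osimertinib libraries, and of the other 30 genes 24 rose deposited, 24 rescaled and 22 under both. Among all genes tested, 6.62% were called higher and 0.13% lower in the deposited CPM, and 10.4% were called higher and 10.5% lower in the rescaled CPM. For the 31 genes the median log2 fold change was 1.37 deposited and 1.08 rescaled. Every osimertinib library lay above every placebo library for 13 of the 31 genes in the deposited CPM, where 5.33% of all genes tested did so, and for 10 of the 31 in the rescaled CPM, where 5.71% did. Without Pdp2 these were 12 and 9 genes.

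The rescaled count rested on a few libraries. It was 4 without osimertinib library 3, 6 without osimertinib library 5, 8 without placebo library 1 and 6 without placebo library 2, and 20 to 26 without any other. The 4 genes called in each of these 10 rescaled fits were Idh3a, Fh1, Pdha1 and Me3, and the other 21 rescaled calls were each lost in at least 1 fit. Counts over all genes dropped in the same fits, to 216, 294, 383 and 333 genes called higher without those libraries, against 1283 with all 10 libraries. Before adjustment the limma p stayed under 0.05 for 25 of 30, 26 of 30, 27 of 31 and 28 of 31 genes tested in those fits, in the same order. With all 10 libraries it did so for 28 of 31. In the deposited CPM the count stayed between 20 and 26 when any 1 library was left out, and 18 of the 25 genes were called in all 10 such fits. In 8 of those 10 deposited fits limma estimated a common variance for all genes of a given level, so that a gene's own spread did not enter its test. With no filter on low values 11 of the 31 genes were called in the rescaled CPM, where 2.45% of all genes were called higher, and 0 in the deposited CPM, where 0 of 21622 genes were called and 29 of the 31 had an unadjusted p under 0.05.

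**Figure D1:**
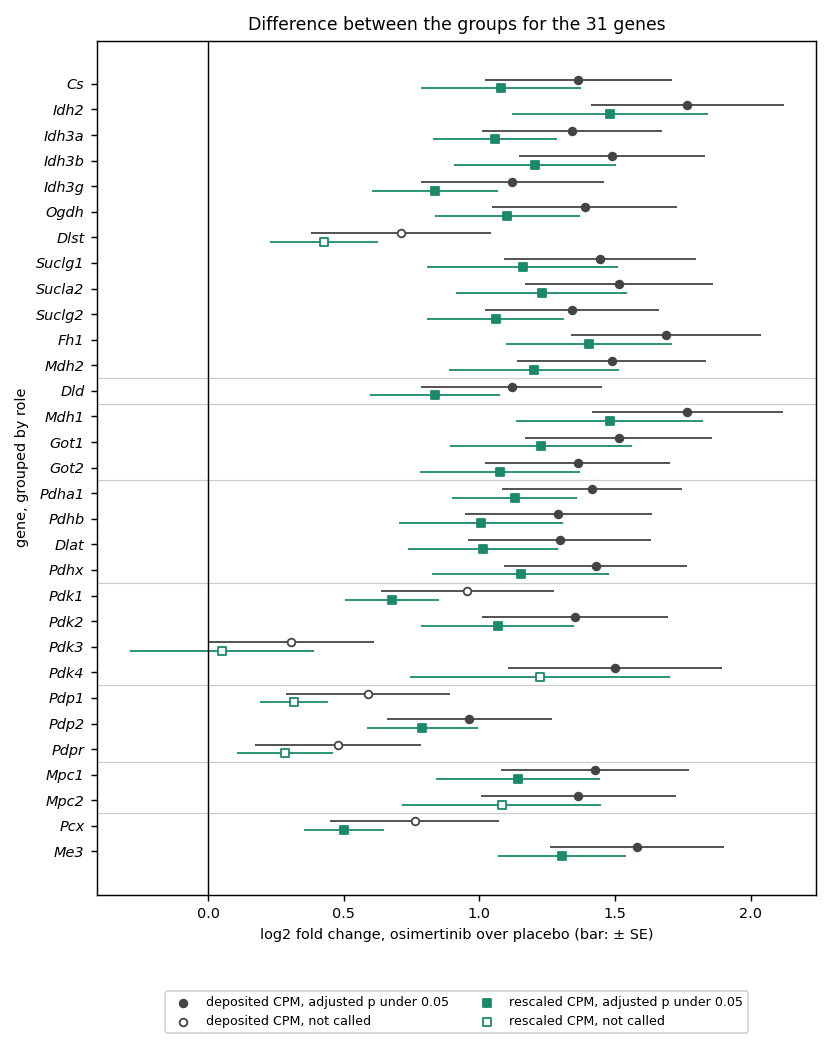
Log2 fold change of each of the 31 genes, osimertinib over placebo (x axis), with bars of ± SE and genes grouped by role down the page. Dark circles are deposited CPM, green squares rescaled CPM, and open symbols did not pass an adjusted p of 0.05 in limma. All 31 estimates lie above 0, and Dlst, Pdk3, Pdp1 and Pdpr are open under both scalings.

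Among the 12 cycle enzymes, 11 rose under both scalings, with a median log2 fold change of 1.42 in the deposited and 1.13 in the rescaled CPM. The greatest estimate was that of Idh2 (chr7:80094846-80115392, GRCm38, as are all coordinates), which makes NADPH from isocitrate in mitochondria. Its deposited level was 804, 1250.2, 1828, 897 and 2058 CPM in osimertinib libraries 1 to 5, against 242, 493, 609, 736 and 138 CPM in placebo libraries 1 to 5. All 5 osimertinib libraries stood above the highest placebo library. The log2 fold change was 1.77 ± 0.35 (SE; limma adjusted p = 0.00252) in the deposited CPM and 1.48 ± 0.36 (limma adjusted p = 0.0209) in the rescaled CPM, where osimertinib library 4 at 757 rescaled CPM fell just under placebo library 4 at 795.

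The 3 subunits of the NAD-dependent isocitrate dehydrogenase, which catalyses a rate-controlling step of the cycle, also rose together. Its catalytic subunit Idh3a (chr9:54586334-54604661) had 142, 158, 239, 146 and 242 rescaled CPM in osimertinib libraries 1 to 5, against 57.5, 71.5, 110.4, 123 and 84.7 in placebo libraries 1 to 5. The groups did not overlap under either scaling. Idh3a rose by 1.06 ± 0.23 log2 in the rescaled CPM (limma adjusted p = 0.0161), and by 1.34 ± 0.33 in the deposited CPM (limma adjusted p = 0.00824). Idh3b, a regulatory subunit, rose by 1.20 ± 0.30 log2 rescaled (limma adjusted p = 0.022), again without overlap. Idh3g, the other regulatory subunit, rose by 0.84 ± 0.23 log2 rescaled (limma adjusted p = 0.0306), with osimertinib library 1 at 176 rescaled CPM below placebo library 4 at 189. In the deposited CPM the rise of Idh3g was not called without osimertinib library 2, 3 or 5 or placebo library 1, at an adjusted p of up to 0.118.

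Fh1 (chr1:175600374-175625635), fumarate hydratase, which turns fumarate into malate, averaged 183 ± 70.3 rescaled CPM after osimertinib and 69.9 ± 30.1 after placebo (SD, n = 5 each). Its libraries held 116, 154, 236, 132 and 277 rescaled CPM under osimertinib and 43.1, 56.1, 103, 102 and 45.4 under placebo, in the order of their numbers. No placebo library reached the lowest osimertinib library. Fh1 rose by 1.40 ± 0.31 log2 rescaled (limma adjusted p = 0.0163) and 1.69 ± 0.35 deposited (limma adjusted p = 0.00295). Within the placebo group, libraries 3 and 4 lay far above libraries 1, 2 and 5 and close to osimertinib library 1.

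Ogdh and Dlst code for the first and second enzymes of the alpha-ketoglutarate dehydrogenase complex, and of these only Ogdh was called. Ogdh (chr11:6291633-6356642) had 423, 631, 897, 505 and 939 deposited CPM in osimertinib libraries 1 to 5, against 195, 317, 387, 354 and 108 in placebo libraries 1 to 5, without overlap. Its log2 fold change was 1.39 ± 0.34 deposited (limma adjusted p = 0.00823) and 1.10 ± 0.27 rescaled (limma adjusted p = 0.0205). Dlst (chr12:85110833-85134845) was the one cycle enzyme not called under either scaling. It had 126.2, 203, 257, 175 and 248 deposited CPM in osimertinib libraries 1 to 5, against 108, 154, 171, 152 and 55.5 in placebo libraries 1 to 5. Osimertinib library 1 lay inside the placebo range and placebo library 5 far below the other 9. The log2 fold change of Dlst was 0.71 ± 0.33 deposited (limma adjusted p = 0.192) and 0.43 ± 0.20 rescaled (limma adjusted p = 0.135). The difference between the changes of Ogdh and Dlst was not tested.

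Citrate synthase and the succinyl-CoA ligase genes rose under both scalings. Cs (chr10:128337734-128362479), which joins acetyl-CoA to oxaloacetate, averaged 383 ± 137 deposited CPM after osimertinib and 157 ± 74.3 after placebo (SD, n = 5 each), with a log2 fold change of 1.37 ± 0.34 deposited (limma adjusted p = 0.00886) and 1.08 ± 0.29 rescaled (limma adjusted p = 0.0291). Osimertinib library 1, at 226 deposited CPM, lay below placebo library 4, at 232, so the groups overlapped. Succinyl-CoA ligase has a common alpha subunit, Suclg1, and a beta subunit that makes either ATP (Sucla2) or GTP (Suclg2). Suclg1 averaged 217 ± 78.97 rescaled CPM after osimertinib and 103 ± 55.3 after placebo and rose by 1.16 ± 0.35 log2 (limma adjusted p = 0.0388). Sucla2 averaged 148 ± 62.1 and 61.7 ± 23.3 rescaled CPM after osimertinib and placebo and rose by 1.23 ± 0.32 log2 (limma adjusted p = 0.0244). Suclg2, at 43.01 ± 17.04 rescaled CPM after osimertinib and 19.6 ± 4.75 after placebo, rose by 1.06 ± 0.25 log2 (limma adjusted p = 0.0193). Among these 3, Suclg2 was the gene without overlap between groups, at 26.95 to 67.1 rescaled CPM after osimertinib and 13.1 to 24.2 after placebo.

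Mdh2, mitochondrial malate dehydrogenase, closes the cycle by making oxaloacetate. Its deposited level was 456, 697, 1026, 579 and 956 CPM in osimertinib libraries 1 to 5 and 166, 314, 441, 439 and 102 CPM in placebo libraries 1 to 5, without overlap. The rise was 1.49 ± 0.35 log2 deposited (limma adjusted p = 0.00531) and 1.20 ± 0.31 log2 rescaled (limma adjusted p = 0.0252), and in the rescaled CPM osimertinib library 1 at 466 fell under placebo library 4 at 474. Dld, the dihydrolipoamide dehydrogenase that serves the alpha-ketoglutarate and pyruvate dehydrogenase complexes alike, rose by 1.12 ± 0.33 log2 deposited (limma adjusted p = 0.0283) and 0.84 ± 0.24 rescaled (limma adjusted p = 0.0335). Its deposited call was lost without osimertinib library 2, 3 or 5 or placebo library 1 or 5, at an adjusted p of up to 0.128.

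The 3 shuttle genes rose under both scalings, with a median log2 fold change of 1.51 deposited and 1.23 rescaled. Mdh1 (chr11:21556787-21572367), cytosolic malate dehydrogenase, which reduces oxaloacetate with cytosolic NADH, had 400.0, 673, 1079.9, 540.3 and 1057 deposited CPM in osimertinib libraries 1 to 5, against 142, 235, 378, 352 and 81.4 in placebo libraries 1 to 5. The groups did not overlap under either scaling. Mdh1 rose by 1.77 ± 0.35 log2 deposited (limma adjusted p = 0.00245) and by 1.48 ± 0.34 log2 rescaled (limma adjusted p = 0.0182). Got1 and Got2 are the cytosolic and mitochondrial aspartate aminotransferases that return the carbon as aspartate. Got1 averaged 188 ± 72.1 rescaled CPM after osimertinib and 83.3 ± 39.3 after placebo (SD, n = 5 each), a log2 fold change of 1.23 ± 0.33 (limma adjusted p = 0.0291). Got2 averaged 315 ± 105 rescaled CPM after osimertinib and 153 ± 61.6 after placebo (SD, n = 5 each), a log2 fold change of 1.08 ± 0.29 (limma adjusted p = 0.0292). In the deposited CPM Got1 rose by 1.51 and Got2 by 1.36 on the log2 scale, the second without overlap between groups.

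**Figure D2:**
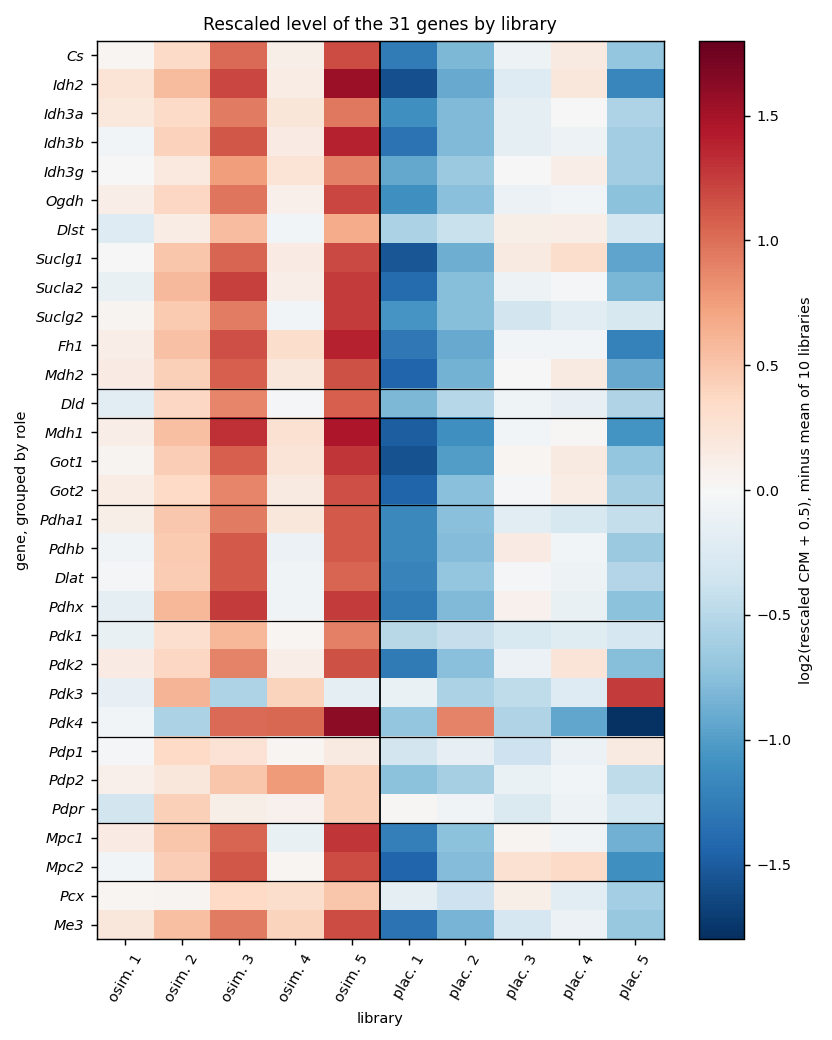
Level of each of the 31 genes (rows, grouped by role) in each library (columns, osimertinib left of the line), as log2(rescaled CPM + 0.5) minus the gene's mean over the 10 libraries. Red is above and blue below that mean. Osimertinib library 5 is the highest of its group for 26 genes and placebo library 1 the lowest of its group for 26, while Pdk3 and Pdk4 depart from the column pattern.

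Within each group the same libraries were high or low for most of the genes. In the rescaled CPM osimertinib library 5 was the highest osimertinib library for 26 of the 31 genes, and osimertinib library 1 was the lowest for 22 and osimertinib library 4 for 7. Placebo library 1 was the lowest placebo library for 26 genes, and placebo library 4 was the highest for 19 and placebo library 3 for 8. The mean of the 31 centred log2 values was 0.01, 0.38, 0.86, 0.17 and 1.04 in osimertinib libraries 1 to 5, against -1.05, -0.65, -0.10, -0.04 and -0.63 in placebo libraries 1 to 5. The lowest osimertinib library lay above the highest placebo library, by less than the spread within either group. In the deposited CPM placebo library 5 was the lowest placebo library for 30 of the 31 genes.

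All 4 genes of the pyruvate dehydrogenase complex rose under both scalings, with a median log2 fold change of 1.36 deposited and 1.07 rescaled. Pdha1 (chrX:160122209-160138413) codes for the alpha subunit of its first enzyme, which carries the phosphorylation sites the kinases act on. It had 173, 226, 307, 185 and 344 rescaled CPM in osimertinib libraries 1 to 5, against 71.5, 95.3, 139.7, 132 and 119 in placebo libraries 1 to 5, without overlap. Its log2 fold change was 1.13 ± 0.23 rescaled (limma adjusted p = 0.0141) and 1.42 ± 0.33 deposited (limma adjusted p = 0.00539). Pdhb, the beta subunit, averaged 243 ± 97.7 rescaled CPM after osimertinib and 119 ± 44.7 after placebo (SD, n = 5 each) and rose by 1.01 ± 0.30 log2 (limma adjusted p = 0.0377). Dlat, the acetyltransferase core, averaged 94.8 ± 36.3 rescaled CPM after osimertinib and 45.9 ± 14.5 after placebo and rose by 1.01 ± 0.28 log2 (limma adjusted p = 0.0292). Pdhx, which anchors Dld to the core, averaged 38.4 ± 17.7 rescaled CPM after osimertinib and 16.4 ± 6.25 after placebo and rose by 1.15 ± 0.33 log2 (limma adjusted p = 0.0317). For these last 3 genes the groups overlapped under both scalings, with osimertinib library 1 or 4 below placebo library 3. In the deposited CPM Pdhb was not called without osimertinib library 3 or 5 (adjusted p of up to 0.0752) and Dlat was not called without osimertinib library 3 (0.0695).

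Of the 4 kinase genes 2 were called under each scaling, Pdk2 and Pdk4 in the deposited CPM and Pdk1 and Pdk2 in the rescaled CPM, with a median log2 fold change of 1.15 deposited and 0.87 rescaled. Pdk2 (chr11:95026258-95041354), the kinase of the complex most widely expressed across tissues, rose under both scalings. It had 131, 190.0, 257, 155 and 273 deposited CPM in osimertinib libraries 1 to 5, against 52.3, 95.6, 116, 131 and 32.1 in placebo libraries 1 to 5. Osimertinib library 1 and placebo library 4 were level, at 130.8 and 130.9 deposited CPM. Pdk2 rose by 1.35 ± 0.34 log2 deposited (limma adjusted p = 0.00919) and 1.07 ± 0.28 rescaled (limma adjusted p = 0.0265).

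Pdk4 (chr6:5483351-5496309), the kinase induced by fasting and by fatty acids through PPAR receptors, varied widely between libraries of 1 group. Its deposited level was 60.8, 52.7, 151, 157 and 202 CPM in osimertinib libraries 1 to 5, against 41.5, 161, 45.5, 30.8 and 8.35 CPM in placebo libraries 1 to 5. Placebo library 2 stood above 4 of the 5 osimertinib libraries, while the other 4 placebo libraries stood below all of them. The log2 fold change was 1.50 ± 0.39 in the deposited CPM (limma adjusted p = 0.0123), a call lost without placebo library 5 (adjusted p = 0.153, range over the 10 libraries left out in turn 0.000561 to 0.153). In the rescaled CPM it was 1.22 ± 0.48 (limma adjusted p = 0.0818) and did not pass, though it did without osimertinib library 2 or placebo library 2 (lowest adjusted p = 0.0462). The deposited error and p-value reflect little of the wide spread of Pdk4 itself, because that fit drew the variance of each gene strongly toward genes of a similar level.

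Pdk1 (chr2:71873224-71903858), a kinase known as a target of hypoxia-inducible factor, had 22.9, 30.96, 38.2, 25.7 and 47.4 rescaled CPM in osimertinib libraries 1 to 5, against 17.6, 18.8, 20.7, 21.6 and 20.3 in placebo libraries 1 to 5. The placebo libraries were close together and all lay below the lowest osimertinib library. The log2 fold change was 0.68 ± 0.17 rescaled (limma adjusted p = 0.0247), and 0.96 ± 0.32 in the deposited CPM, where it missed the threshold (limma adjusted p = 0.0511). Pdk3 was near the floor of detection, at 1.22 to 3.65 deposited CPM after osimertinib and 1.22 to 2.25 after placebo, and its log2 fold change was 0.31 ± 0.31 deposited (limma adjusted p = 0.616) and 0.05 ± 0.34 rescaled (limma adjusted p = 0.927). Per kilobase of merged exon the order of the mean deposited levels was Pdk2, Pdk4, Pdk1 and Pdk3 in both groups. That order was not tested and did not hold in every library, with Pdk4 at 161 and Pdk2 at 95.6 deposited CPM in placebo library 2. Pdk2 stood at 63.6 ± 19.6 CPM per kilobase after osimertinib and 26.99 ± 13.3 after placebo (SD, n = 5 each). Pdk4 stood at 35.4 ± 18.5 CPM per kilobase after osimertinib and 16.3 ± 16.96 after placebo, Pdk1 at 4.72 ± 1.35 and 2.43 ± 0.767, and Pdk3 at 0.852 ± 0.417 and 0.614 ± 0.162.

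**Figure D3:**
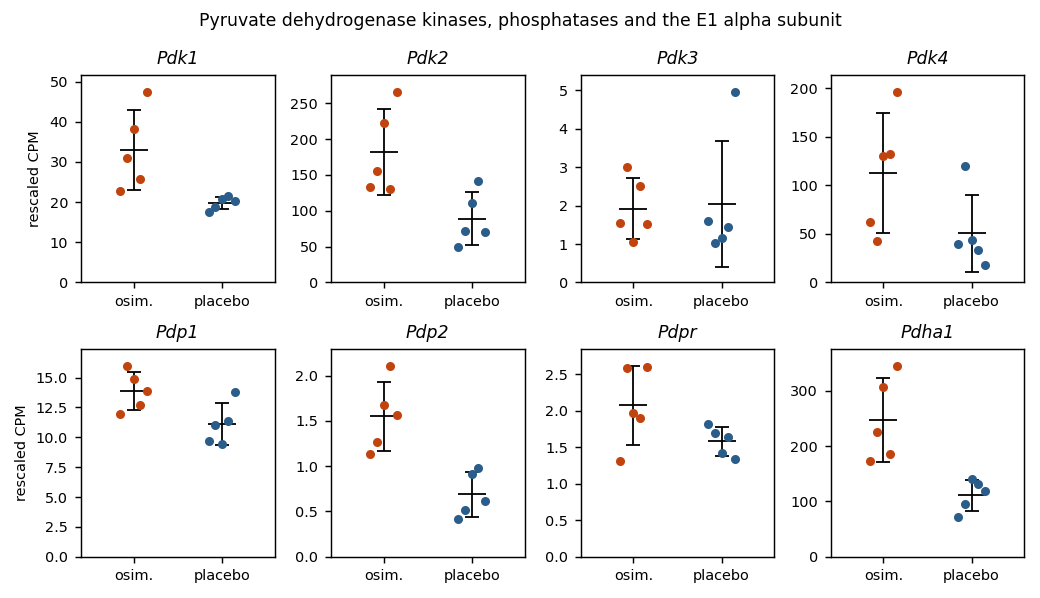
Rescaled CPM (y axis, from 0) of the 4 kinase genes, the 3 phosphatase genes and Pdha1 in each library, osimertinib left and placebo right, with the mean and SD of 5 libraries. The groups do not overlap for Pdk1, Pdp2 and Pdha1, and single placebo libraries stand apart for Pdk3 (4.96) and Pdk4 (119.5).

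Of the phosphatase genes only Pdp2 was called, under both scalings, and the median log2 fold change of the 3 was 0.59 deposited and 0.32 rescaled. Pdp2 codes for a catalytic subunit and was scarce, at 1.11, 1.55, 1.94, 2.49 and 1.61 deposited CPM in osimertinib libraries 1 to 5, against 0.444, 0.693, 0.951, 0.910 and 0.282 in placebo libraries 1 to 5. Every osimertinib library lay above 1 CPM and every placebo library below it. The log2 fold change of Pdp2 was 0.96 ± 0.30 deposited (limma adjusted p = 0.0398) and 0.79 ± 0.20 rescaled (limma adjusted p = 0.025). Because the gene was tested only through its osimertinib libraries, each at or above the minimum of 1 CPM, it had to be higher there to be tested at all, and its call is given as a description. The deposited call was lost without placebo library 1 or 5 (adjusted p of up to 0.108). Pdp1, the calcium-stimulated catalytic subunit, had 11.98, 15.96, 14.9, 12.7 and 13.9 rescaled CPM in osimertinib libraries 1 to 5, against 9.72, 11.02, 9.43, 11.4 and 13.8 in placebo libraries 1 to 5, and its log2 fold change was 0.32 ± 0.13 (limma adjusted p = 0.0851). Pdpr, the regulatory subunit, had a log2 fold change of 0.28 ± 0.18 rescaled (limma adjusted p = 0.259). Pdp1 stood at 3.45 ± 0.653 CPM per kilobase after osimertinib and 2.30 ± 0.672 after placebo, and Pdp2 at 0.306 ± 0.0904 and 0.115 ± 0.0511 (SD, n = 5 each, deposited).

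Mpc1 and Mpc2 form the mitochondrial pyruvate carrier together. Mpc1 (chr17:8282904-8297661) had 130.2, 207, 286, 129.8 and 302 deposited CPM in osimertinib libraries 1 to 5, against 53.3, 96.1, 129, 106 and 29.8 in placebo libraries 1 to 5, and the lowest osimertinib value lay just above the highest placebo value. It rose by 1.43 ± 0.35 log2 deposited (limma adjusted p = 0.00765) and 1.14 ± 0.30 rescaled (limma adjusted p = 0.0267). Mpc2 averaged 153 ± 61.1 rescaled CPM after osimertinib and 76.7 ± 42.2 after placebo (SD, n = 5 each). Its log2 fold change was 1.37 ± 0.36 deposited (limma adjusted p = 0.0122) and 1.08 ± 0.37 rescaled, where it did not pass (limma adjusted p = 0.0526). Without placebo library 5 the deposited call of Mpc2 was lost as well (adjusted p = 0.0683).

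Pyruvate carboxylase, Pcx, makes oxaloacetate from pyruvate and so refills the cycle, and Me3 is a mitochondrial malic enzyme that makes pyruvate from malate. Me3 (chr7:89632392-89854359) had 24.01, 38.01, 47.4, 33.3 and 49.5 deposited CPM in osimertinib libraries 1 to 5, against 8.54, 15.6, 17.8, 18.3 and 5.91 in placebo libraries 1 to 5, without overlap under either scaling. It rose by 1.58 ± 0.32 log2 deposited (limma adjusted p = 0.00278) and 1.30 ± 0.24 rescaled (limma adjusted p = 0.0121), the lowest rescaled adjusted p among the 31 genes. Pcx (chr19:4510472-4621752) had 9.48, 9.58, 12.03, 11.7 and 13.3 rescaled CPM in osimertinib libraries 1 to 5, against 8.13, 7.08, 10.04, 8.00 and 5.89 in placebo libraries 1 to 5. Its values spanned a narrow range, and placebo library 3 lay above osimertinib libraries 1 and 2. Pcx rose by 0.50 ± 0.15 log2 rescaled (limma adjusted p = 0.0352), and its deposited change of 0.76 ± 0.31 did not pass (limma adjusted p = 0.124).

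Per kilobase of merged exon, Idh2 was the most abundant of the 31 transcripts in both groups, at 528 ± 215 CPM per kilobase after osimertinib and 171 ± 96.5 after placebo (SD, n = 5 each, deposited). Mdh1 followed at 292 ± 119 and 92.6 ± 50.2, then Mdh2 at 209 ± 68.3 and 82.1 ± 43.5 and Ogdh at 124 ± 42.3 and 49.9 ± 21.5. Differences between neighbours in this order were not tested. Pcx, at 2.63 ± 0.424 and 1.63 ± 0.641, and Me3, at 2.63 ± 0.714 and 0.903 ± 0.385, were low in comparison with the cycle enzymes. The merged exons of Me3 are the longest of the 31 genes, at 14624 bases, which lowers its value per kilobase. Before division by length, Me3 averaged 38.4 deposited CPM after osimertinib, against 12.5 for Pcx and 47.6 for Suclg2, the least abundant cycle enzyme.

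Ratios of 2 genes within a library depend on the scaling only through the 0.5 added to each deposited CPM, and 12 pairs were compared to ask whether the genes changed by unequal amounts. None passed the exact permutation test over all assignments of the 10 libraries to groups of 5 after Benjamini-Hochberg adjustment over the 12 pairs, and 2 had an unadjusted p under 0.05. A pair with the smallest p the design allows could not pass this adjustment unless other pairs also had very small p-values. The absence of calls therefore does not show that the genes changed by equal amounts. The log2 ratio of Mdh1 to Mdh2, the cytosolic to the mitochondrial malate dehydrogenase, was -0.19, -0.05, 0.07, -0.10 and 0.14 in osimertinib libraries 1 to 5, against -0.22, -0.42, -0.22, -0.32 and -0.33 in placebo libraries 1 to 5. It was higher in each osimertinib library than in any placebo library, by 0.28 ± 0.07 log2 on average (SE; exact p = 0.00794, the smallest the design allows, adjusted p = 0.0952). The log2 ratio of Pcx to Pdha1, the pair of enzymes that compete for mitochondrial pyruvate, was -4.12, -4.50, -4.62, -3.94 and -4.64 in osimertinib libraries 1 to 5, against -3.06, -3.68, -3.74, -3.96 and -4.10 in placebo libraries 1 to 5. All 5 osimertinib libraries lay below the placebo mean, and the groups overlapped. The difference, osimertinib minus placebo, was -0.65 ± 0.23 log2 (SE; exact p = 0.0317, adjusted p = 0.19). With 2 added in place of 0.5 both ratios passed (adjusted exact p = 0.0476 each). The exact p of Mdh1 to Mdh2 was already the smallest possible, so its adjusted p fell only through the p-values of other pairs.

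The other 10 ratios had exact p-values of 0.0556 or more. The ratio of Idh2 to Idh3a was higher by 0.42 ± 0.19 log2 (exact p = 0.0556, adjusted p = 0.214). The ratio of Ogdh to Cs differed by 0.02 ± 0.07 log2 (exact p = 0.754, adjusted p = 0.905). Pdk4 to Pdha1, a kinase against its substrate, differed by 0.09 ± 0.60 log2 (exact p = 0.897, adjusted p = 0.905), an error that leaves room for a sizeable change in either direction. The ratio of Pdk2 to Pdp2, a kinase against a phosphatase, was higher by 0.39 log2 (exact p = 0.222, adjusted p = 0.444).

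**Figure D4:**
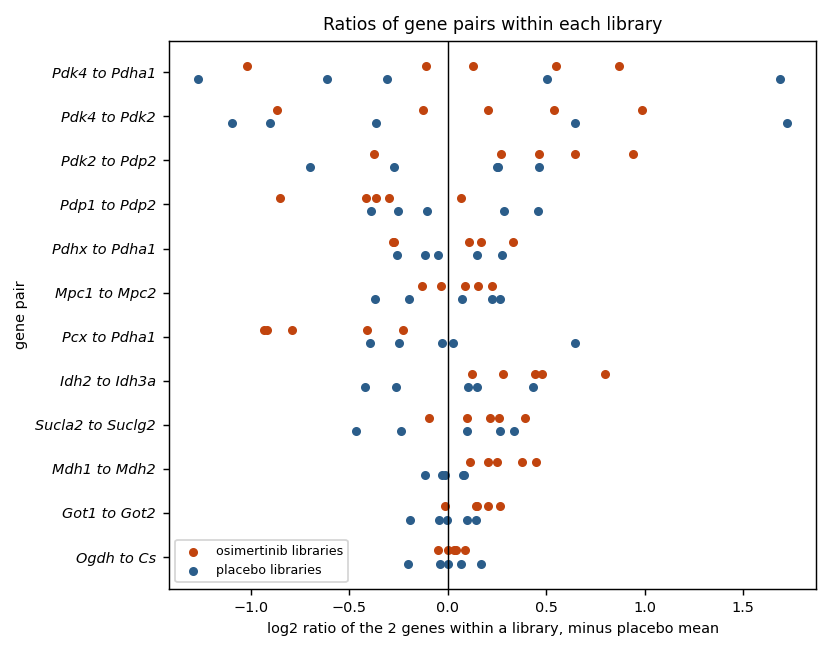
Log2 ratio of 12 gene pairs within each library, minus the placebo mean of the pair (x axis), with osimertinib libraries above placebo libraries in each row. For Mdh1 to Mdh2 every osimertinib library lies right of every placebo library, and the pairs with Pdk4 span the widest range.

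Neighbouring genes of the pathway, 31 further genes of the cycle, its carriers, lipoate synthesis and lactate metabolism, were counted in the same fits. Of these, 13 rose in the deposited CPM and 12 in the rescaled CPM, with 12 under both, and none was called lower. Among all genes tested 6.62% were called higher in the deposited and 10.4% in the rescaled CPM. Their median log2 fold change was 0.68 deposited and 0.45 rescaled, against 0.27 and 0.01 over all genes tested. The 4 genes of succinate dehydrogenase, which passes electrons from succinate to the respiratory chain, rose by 1.25 (Sdha), 0.99 (Sdhb), 1.07 (Sdhc) and 1.12 (Sdhd) log2 rescaled. Ldhb, the lactate dehydrogenase subunit typical of heart, rose by 1.27 ± 0.39 log2 rescaled (limma adjusted p = 0.0407), whereas Ldha, the subunit typical of glycolytic muscle, had a change of 0.56 ± 0.22 that did not pass (limma adjusted p = 0.0787). That difference between the 2 lactate dehydrogenase genes was not tested.

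Of the 3 carrier genes of the malate-aspartate shuttle, 2 were called under both scalings. Slc25a11, the malate carrier, rose by 1.13 ± 0.32 log2 rescaled (limma adjusted p = 0.032) and Slc25a12, an aspartate-glutamate carrier, by 0.73 ± 0.18 (limma adjusted p = 0.022). Slc25a13, the other aspartate-glutamate carrier, was called in the deposited CPM alone (1.24 log2, limma adjusted p = 0.0136), with a rescaled change of 0.97 (limma adjusted p = 0.0575). The cytosolic malic enzyme Me1 rose by 0.99, the branched-chain ketoacid dehydrogenase kinase Bckdk by 0.84 and the transhydrogenase Nnt by 1.15 log2 rescaled, each also called in the deposited CPM. The citrate carrier Slc25a1 (0.17 log2 rescaled) and the lipoate synthase Lias (0.38) did not pass under either scaling.

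Of 13 regulators of mitochondrial genes, 12 were tested and 2 were called higher under both scalings, the estrogen-related receptor genes Esrrb and Esrrg. In all 2 of the 12 were called higher deposited and 3 rescaled, where 6.62% and 10.4% of all genes tested were. Esrrg averaged 5.93 ± 1.73 deposited CPM after osimertinib and 2.71 ± 1.40 after placebo (SD, n = 5 each), with a log2 fold change of 1.09 deposited (limma adjusted p = 0.0214) and 0.87 rescaled (limma adjusted p = 0.0361). Esrrb rose by 1.04 deposited (limma adjusted p = 0.0304) and 0.79 rescaled (limma adjusted p = 0.0499). Tfam, the mitochondrial transcription factor, rose in the rescaled CPM alone (0.57 log2, limma adjusted p = 0.0248). The coactivator Ppargc1a had a change of 0.91 deposited (limma adjusted p = 0.0845), Esrra of 0.27 (0.689) and Hif1a of 0.51 (0.392), none of which passed. Ppara was too low to test, at 0.837 CPM on average after osimertinib and 0.426 CPM after placebo.

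Markers of cell types were read beside the pathway genes and did not all move the same way. For the marker counts that follow, the shares over all genes tested were 6.62% called higher and 0.13% lower in the deposited CPM. In the rescaled CPM they were 10.4% higher and 10.5% lower. Summed over 10 cardiomyocyte markers, the rescaled level was 30148 to 51211 CPM after osimertinib and 15750.5 to 35970 CPM after placebo, and the osimertinib and placebo libraries with the highest marker sums, osimertinib libraries 5 and 3 and placebo libraries 4 and 3, also had the highest sums of the 31 genes in their groups. Of the 10 markers 5 rose in the deposited CPM and 2 in the rescaled CPM, Actc1 and Pln, with a rescaled median log2 fold change of 0.74. Summed over 8 endothelial markers, the level was 1694 to 2193 rescaled CPM after osimertinib and 2195 to 3106 after placebo, and 3 of the 8 (Tie1, Egfl7 and Fabp4) were called lower. In the deposited CPM the endothelial sums overlapped, at 1909 to 2547 CPM after osimertinib and 1365 to 3990.2 after placebo, and 0 of the 8 were called, with a median log2 fold change of -0.02. Of 8 fibroblast markers none was called under either scaling, at sums of 669 to 1430.1 rescaled CPM after osimertinib and 493 to 913 after placebo. Among 8 macrophage markers, 2 were called higher in the rescaled and 0 in the deposited CPM, at rescaled sums of 214 to 285 CPM after osimertinib and 151 to 222 after placebo. Of 8 smooth muscle and pericyte markers none was called under either scaling, at 541 to 888 rescaled CPM after osimertinib and 445 to 697 after placebo, and none of 6 lymphocyte markers was high enough to test. Of 5 adipocyte markers 3 were tested, of which 1 was called higher in the deposited and none in the rescaled CPM. Atrial markers summed to 709.9 to 4713 rescaled CPM after osimertinib and 517 to 1412 after placebo, with 3 of 6 tested called higher in the deposited and none in the rescaled CPM, and the atrial marker Bmp10 at 0 in every library. The atrial marker Myl7 held 267, 310, 0.288, 1149 and 0.324 rescaled CPM in osimertinib libraries 1 to 5. In placebo libraries 1 to 5 it held 256, 55.5, 0.862, 0 and 267. Osimertinib libraries 3 and 5 and placebo libraries 3 and 4, which had the highest sums of the 31 genes, were thus the lowest for Myl7, and likewise for Myl4 and Sln. The part of atrial tissue in the order of the libraries was not tested. In bulk tissue fewer cells of a type and less RNA per cell cannot be told apart. With mitochondrially encoded genes left out of the library totals, 21 of the 31 genes were called higher in the deposited CPM, where 3.77% of all genes tested were. With the atrial marker level as a covariate 28 were called higher in the rescaled CPM, where 21.5% of all genes tested were. The part of cardiomyocyte and endothelial RNA content in the result was not tested.

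**Figure D5:**
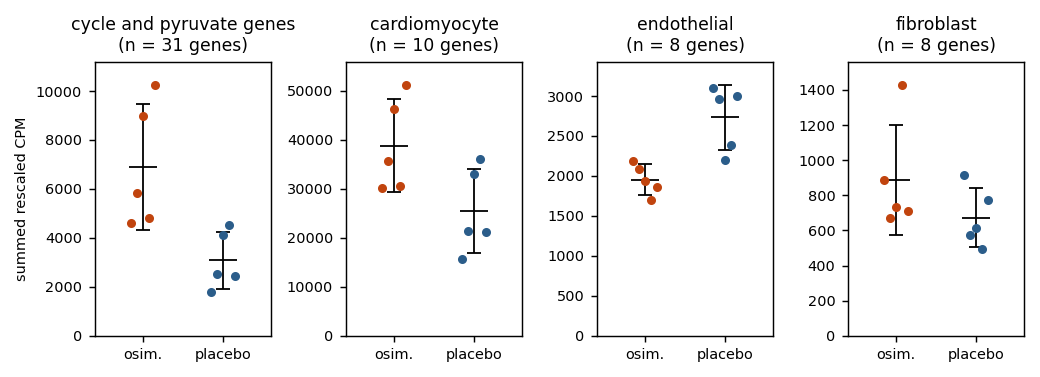
Summed rescaled CPM (y axes, from 0, each with its own scale) of the 31 pathway genes and of the cardiomyocyte, endothelial and fibroblast markers in each library, osimertinib left and placebo right, with the mean and SD of 5 libraries. The pathway sum lies at 4591 to 10262 CPM after osimertinib and 1788 to 4521 after placebo, and the endothelial sum lies lower after osimertinib in these rescaled values, while in the deposited CPM it overlaps.

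Stretches of each gene's sequence were searched for in the transcripts of other genes. The greatest share of a gene's 31-base words found in 1 other gene was 20.3% for Got2 (in Got2-ps1), followed by 20.1% for Suclg2 (in Gm15163), 15.6% for Pdhb (in Gm6123) and 12.6% for Mpc1 (in Mpc1-ps). These pseudogenes averaged at most 1.77 CPM. How reads that match both copies were assigned is not settled by the sources, so the number of reads lost to copies was not measured.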

How the data were processed

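Poly(A) RNA of 10 left ventricles was sequenced, 5 given osimertinib and 5 given placebo, with group and number taken from each sample's title. The deposited values are CPM, which the authors scaled to library totals alone (column sums of 1000000). The design text names STAR, the GRCm38 mouse genome, RSEM within nf-core, and limma with voom. The submitters' processing notes name cutadapt 1.9, HISAT2 2.0.4, StringTie 1.3.4d, DESeq2 and the human build hg38, so the sources differ. Of 45706 mouse gene identifiers, 45143 (98.77%) matched GENCODE M21 (GRCm38), which gave coordinates and merged exon lengths.

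Depth, 15863267 to 21309295 reads, was read from the spacing of low values. Between 90.7% and 93.4% of low values were whole reads, to a tolerance of 0.01 read, so the main tests did not use counts. A fit with voom on estimated reads was run as an alternative and called 24 of the 31 genes deposited and 25 rescaled. Depth limits the precision of genes near 1 CPM.

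The 12350 genes that reached 1 CPM in 5 or more libraries were tested with limma 3.58.1 in R 4.3.3, with an intensity trend on log2(CPM + 0.5), a scale that shrinks the changes of low genes. Errors are limma's moderated standard errors (SE). For rescaling, the factor of a library was the median, over tested genes, of its ratio to the geometric mean of the 10 libraries. The prior had 72.9 degrees of freedom in the deposited and 4.45 in the rescaled CPM, and the median SE was 0.311 and 0.157. A deposited SE therefore reflects mostly the variance common to genes of a similar level and little of a gene's own spread. Ratios were tested with the exact permutation test. Tables were made with Python 3.11.15, numpy 2.4.6 and pandas 2.3.3, and figures with matplotlib 3.10.9.

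All 31 genes are named whatever their values. Among 31 neighbouring genes and 13 regulators, those called under both scalings, and 14 genes named in the rule whatever their result, are given with values, except 2 genes that are not reported here. The genes and lists were chosen with earlier results of these data known. Alternatives changed the pseudocount, the filter, the scaling, the variance model and the libraries included.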

Additional observations from a re-analysis of the deposited data

Results flagged for a closer look

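In groups of 5 libraries the gap of an extreme library to its nearest neighbour was compared with the range of its group, over 148 groups of values, and chance alone gives such a gap in about 1 group in 20. The gap passed in 3 groups, all of them kinase genes in placebo libraries. Pdk4 in placebo library 2 stood at 160.7 deposited CPM, where the other 4 placebo libraries held 8.35 to 45.5 CPM, and at 119.5 rescaled CPM, where the other 4 held 18.4 to 43.6. Pdk3 in placebo library 5 stood at 4.96 rescaled CPM, where the other 4 placebo libraries held 1.03 to 1.59.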

How the results depend on the processing

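Without the filter on low values, the deposited CPM gave no call among the pathway genes (0 of 31, lowest limma adjusted p 0.159, with 29 at an unadjusted p under 0.05) and 11 were called in the rescaled CPM, and the cause was not tested. The other settings called 21 to 28 genes in the deposited and 25 to 28 in the rescaled CPM. Leaving out 1 library at a time gave 20 to 26 deposited and 4 to 26 rescaled, and an osimertinib library left out left Pdp2 untested. Replicate numbers did not pair the samples, with correlations of same-numbered libraries from -0.34 to 0.46. With the replicate number as a block, 26 genes were called deposited and 26 rescaled, and 0 ratios passed. No ratio could pass there, because the smallest p that its 32 sign assignments allow is 0.0625. With a pseudocount of 2, 2 ratios passed, Mdh1 to Mdh2 and Pcx to Pdha1 (exact p adjusted over 12 pairs 0.0476 each). When 1 library was left out 0 passed, and there too a pair alone at the smallest possible p could not have passed. The median of the 31 genes stayed between 1.09 and 1.54 deposited and 0.91 and 1.27 rescaled. Values that changed sign were none that had passed a test. Pdk3 was -0.095 log2 rescaled with the atrial covariate and -0.10 to 0.38 with 1 library left out. With a pseudocount of 2 the difference was 0.035 for Pdp1 to Pdp2 and -0.070 for Pdhx to Pdha1. With 1 library left out it was -0.067 to 0.084 for Pdhx to Pdha1, -0.23 to 0.51 for Pdk4 to Pdha1, -0.13 to 0.58 for Pdk4 to Pdk2, -0.031 to 0.13 for Mpc1 to Mpc2 and -0.027 to 0.066 for Ogdh to Cs.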
